A study of Homo sapiens with 12 samples.

Results

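The genes described here are CCND1 and 6 of its neighbours in band 11q13 of the long arm of chromosome 11, ORAOV1, ANO1, FADD, PPFIA1, CTTN and SHANK2. They were taken by symbol as genes of a region that is often amplified in head and neck cancer. The rule used no measured value, but the set was proposed with earlier results of these data known. Each matched 1 row, so the 7 genes are 7 of the 58288 rows of the expression table. RNA-Seq was performed in FaDu cells, an established human head and neck squamous cell carcinoma (HNSCC) line, to ask how loss of STING alters transcription at baseline and after ionizing radiation. The 4 groups were unirradiated WT cells, irradiated WT cells, unirradiated KO cells and irradiated KO cells, with 3 libraries in each and 12 in all, and irradiated cells had received 4 daily fractions of 2 Gy. All groups derive from FaDu cells transduced with Cas9 and then with a guide RNA (gRNA) under puromycin selection. WT cells carried a non-targeting gRNA and KO cells 1 gRNA against TMEM173, the gene for STING, so the KO groups rest on a single guide. The sources used here do not say whether the KO cells are 1 clone, how long after the last fraction RNA was collected, or whether the 3 libraries of a group came from separate cultures. The p-values below therefore measure only the spread between these libraries.

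Chromosome band 11q13 is gained in many squamous carcinomas of the head and neck, and the genes on it differ widely in function. CCND1 encodes cyclin D1, which binds CDK4 or CDK6, drives phosphorylation of the retinoblastoma protein (RB) and so carries cells from G1 towards S phase. CDK inhibitors such as p21, encoded by CDKN1A, and p18, encoded by CDKN2C, restrain that step, and both DNA damage and growth factor signals act on it. FADD is the adaptor that links death receptors to caspase 8. CTTN encodes cortactin, which binds the ARP complex and branched actin at the cell cortex and in invadopodia. PPFIA1 encodes liprin alpha 1, a scaffold at the cell edge and at focal adhesions. ANO1 encodes a calcium-activated chloride channel, and SHANK2 a scaffold best known from the postsynaptic density. ORAOV1, listed as LTO1 in newer annotation, serves as an adaptor in the delivery of iron-sulfur clusters to a ribosome recycling factor.

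Cyclin D1 has a pair of close relatives, cyclin D2 (CCND2) and cyclin D3 (CCND3), and the levels of the 3 genes are set side by side below. The first 60 bases of each coding sequence are shown, since this stretch holds both a feature the 3 share and bases at which they diverge. How reads were assigned among the 3 genes was not examined. The sequences were read from GENCODE release 29 on GRCh38, 5′ to 3′ on the coding strand, with the codons of the LxCxE motif, through which D-type cyclins bind RB, in capitals.
CCND1: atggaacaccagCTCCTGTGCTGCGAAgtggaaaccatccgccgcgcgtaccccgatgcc
CCND2: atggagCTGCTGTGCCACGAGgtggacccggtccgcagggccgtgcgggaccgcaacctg
CCND3: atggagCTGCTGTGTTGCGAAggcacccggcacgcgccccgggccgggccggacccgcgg
The motif begins at coding base 13 in CCND1 and at base 7 in CCND2 and CCND3. Over the whole coding sequences, CCND1 shared 67.9% of aligned bases with CCND2 and 65.3% with CCND3. No stretch of identical coding bases was longer than 23 between CCND1 and CCND2 or 20 between CCND1 and CCND3, against reads of 100 bases sequenced as pairs.

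The 7 genes lie on chromosome 11 of GRCh38 within 1612 kb, counted from the start of CCND1 to the start of SHANK2. CCND1 (ENSG00000110092.3) runs on the plus strand from 69641087 to 69654474. ORAOV1 (ENSG00000149716.12) lies on the minus strand from 69653076 to 69675416. ANO1 (ENSG00000131620.17) extends from 70078302 to 70189528, FADD (ENSG00000168040.4) from 70203163 to 70207390, PPFIA1 (ENSG00000131626.16) from 70270700 to 70385312, and CTTN (ENSG00000085733.15) from 70398404 to 70436584, all on the plus strand. SHANK2 (ENSG00000162105.17) occupies 784722 bases on the minus strand, from 70467856 to 71252577. CCND1 and ORAOV1 meet tail to tail and overlap by 1399 bases on opposite strands. Their annotated exons share 497 bases, which is 10.3% of the exonic bases of CCND1 and 6.31% of those of ORAOV1. The strand setting of the quantification is not given in the sources used here, so reads from this stretch may have been assigned to either gene. Of the other overlapping genes, the antisense gene AP000487.1 had the highest level, 21.8 TPM (transcripts per 1000000) averaged over the 12 libraries, and overlaps PPFIA1 by 13067 bases and CTTN by 85 bases.

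The authors deposited TPM for each gene and library, a unit that divides by transcript length, so that levels of different genes can be compared within a library. TPM keeps no read depth, the depth behind each value is unknown, and the spread between libraries is the measure of error. Each library summed to 1000000. TMEM173 was 22.1 ± 1.24 TPM (SD, n = 3) in unirradiated WT and 5.81 ± 0.99 in unirradiated KO cells, and 23.1 ± 2.61 and 6.95 ± 0.54 after radiation. TMEM173 in each KO library lay under that of all WT libraries of the same arm (two-sided exact permutation test, p = 0.1 in each, the smallest p that 3 libraries against 3 allow). All 11 squamous epithelial markers had a mean TPM of at least 1, and their sum lay between 7625 and 10500.0 TPM. The fibroblast markers summed to between 6.34 and 9.29 TPM, of which only COL1A1 reached 1 TPM on average and LUM was listed at 0 in every library. The leukocyte markers summed to between 2.70 and 4.35 TPM, nearly all of it CD14. The endothelial markers summed to between 11.5 and 15.9 TPM in unirradiated and between 18.3 and 23.9 TPM in irradiated libraries, chiefly CDH5, while PECAM1 stayed under 0.1 TPM.

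All 7 genes were expressed in every library, at levels from 33.6 to 2153 TPM, and their order was the same in all 4 groups. CTTN was the highest, followed by PPFIA1, CCND1, FADD, ORAOV1, SHANK2 and ANO1. In unirradiated WT cells, CTTN ranked 47 among all 58288 rows, PPFIA1 159, CCND1 198, FADD 392, ORAOV1 950, SHANK2 3091 and ANO1 4788. Neighbours in the order did not overlap between libraries of the same group, except that SHANK2 and ANO1 overlapped in the unirradiated and the irradiated KO cells. Together the 7 genes held between 0.396% and 0.432% of the TPM of a library, and CTTN alone made up 49.1% to 52.8% of their sum. All are protein-coding, and all 7 passed the filter on low values used for testing.

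Cortactin (CTTN) was 2091, 2092 and 2096 TPM in unirradiated WT and 2117, 2138 and 2153 in irradiated WT libraries. In KO cells it was 2014, 2049.9 and 2133 without radiation and 2133, 2135 and 2148 with radiation. The highest library was thus only 1.07 times the lowest, and the residual SD of log2(TPM + 1) was 0.022, against a median of 0.15 over the 15973 genes tested. PPFIA1 was 711, 742 and 759 TPM in unirradiated WT, 799, 818 and 823 in irradiated WT, 759, 782 and 783 in unirradiated KO and 801, 810.2 and 844 in irradiated KO libraries. The irradiated libraries of PPFIA1 were all above the unirradiated ones of the same genotype. FADD was 319, 340.2 and 343 TPM in unirradiated WT, 345, 348 and 353 in irradiated WT, 337, 349.8 and 363 in unirradiated KO and 334, 348 and 355 in irradiated KO libraries. Its groups overlapped, apart from irradiated WT above unirradiated WT.

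CCND1 was 597, 602 and 619 TPM in unirradiated WT libraries. It was 680.0, 709 and 729 TPM in irradiated WT, 573, 579 and 584 in unirradiated KO and 584, 611 and 616 in irradiated KO libraries. The 3 irradiated WT libraries were the highest of the 12. Unirradiated KO libraries were below the unirradiated WT ones, and unirradiated and irradiated KO libraries overlapped at 584 TPM. ORAOV1, which shares exonic bases with CCND1, varied more between libraries, and its groups were not separated. Its TPM was 158, 163 and 182 in unirradiated WT, 139, 149 and 189 in irradiated WT, 145, 150.1 and 172 in unirradiated KO and 122, 154 and 168 in irradiated KO libraries, and every pair of groups overlapped.

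ANO1 and SHANK2, the 2 genes of lowest level, varied more than CTTN, PPFIA1, CCND1 and FADD. So did ORAOV1 at its higher level, with a residual SD of log2(TPM + 1) of 0.18, beside 0.17 for ANO1. ANO1 was 33.7, 40.1 and 40.9 TPM in unirradiated WT, 44.0, 47.9 and 50.2 in irradiated WT, 33.6, 36.0 and 49.5 in unirradiated KO and 53.8, 54.7 and 55.0 in irradiated KO libraries. Irradiated libraries of ANO1 lay above unirradiated ones in both genotypes, and 1 unirradiated KO library, replicate 1 at 49.5 TPM, stood above the rest of its group. SHANK2 was 43.0, 69.1 and 73.4 TPM in unirradiated WT, 77.7, 78.2 and 83.7 in irradiated WT, 44.6, 48.5 and 67.5 in unirradiated KO and 48.1, 77.5 and 81.4 in irradiated KO libraries. SHANK2 had the widest spread of the 7, with a residual SD of 0.33 on the log2(TPM + 1) scale, above that of 86.3% of the genes tested.

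**Figure D1:**
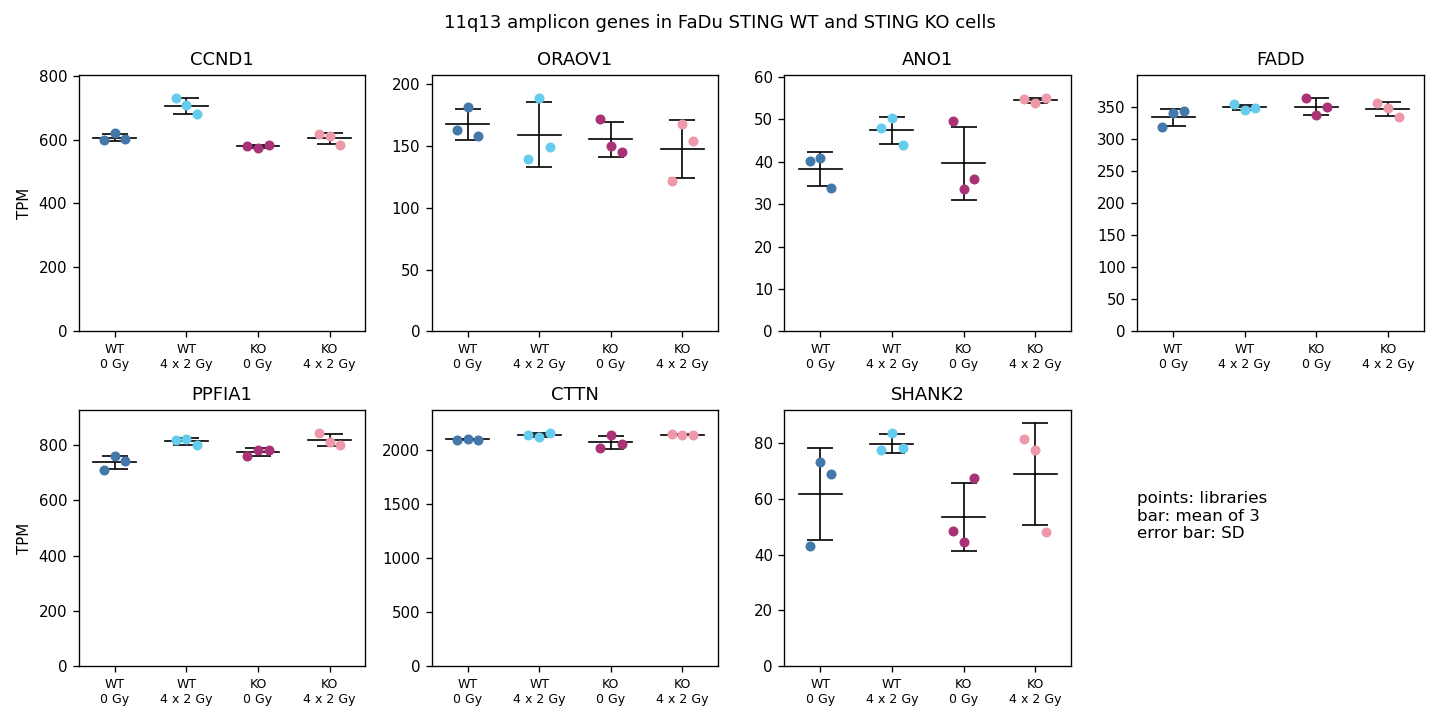
TPM of each of the 7 genes (vertical axes from 0, a separate scale for each gene) in the 4 groups, with points for the 3 libraries, bars for their mean and error bars for the SD. CCND1 was highest in the 3 irradiated WT libraries (680.0 to 729 TPM), CTTN stayed between 2014 and 2153 TPM in all 12 libraries, and SHANK2 varied from 43.0 to 83.7 TPM.

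The position of these genes was set beside the levels of the surrounding genes. Within 3000000 bases of the start of CCND1 the annotation places 89 protein-coding genes with a median level of 39.2 TPM, whereas the median over all 19788 protein-coding genes was 6.63 TPM. The stretch from CCND1 to the end of CTTN holds 9 protein-coding genes with a median of 158 TPM, 5 of them at 100 TPM or more. All genes of the set but SHANK2 are among these 9. At 100 TPM or more were 24 of the 89 genes and 1783 of all 19788 protein-coding genes. The 55 genes before CCND1 had a median of 56.5 TPM, and the 25 genes after CTTN, SHANK2 among them, a median of 5.23 TPM. These medians are descriptions of mean TPM over 12 libraries, and DNA copy number was not measured.

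High levels were not shared by all genes between CCND1 and CTTN. FGF19, a hormone-like fibroblast growth factor, averaged 1.63 TPM although its start lies 63.6 kb from that of CCND1. FGF4 and FGF3, also fibroblast growth factors, averaged 0.0063 and 0.037 TPM. MYEOV, whose start lies at -347 kb from that of CCND1, averaged 8.09 TPM. Further towards the centromere TPCN2, a lysosomal ion channel, averaged 41.6, CPT1A, which imports fatty acids into mitochondria, 56.9, the mitochondrial ribosomal gene MRPL21 120.7, PPP6R3, a phosphatase subunit, 253, and the neuropeptide gene GAL 219.7 TPM. Among the others, IGHMBP2 averaged 37.5 TPM, TESMIN 56.5 and LRP5, a WNT co-receptor, 108.6, while MRGPRF averaged 0.57 TPM and MRGPRD was listed at 0 in all libraries. Beyond SHANK2, DHCR7, an enzyme of cholesterol synthesis, averaged 153.7 TPM and NADSYN1, an enzyme of NAD synthesis, 53.3 TPM.

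**Figure D2:**
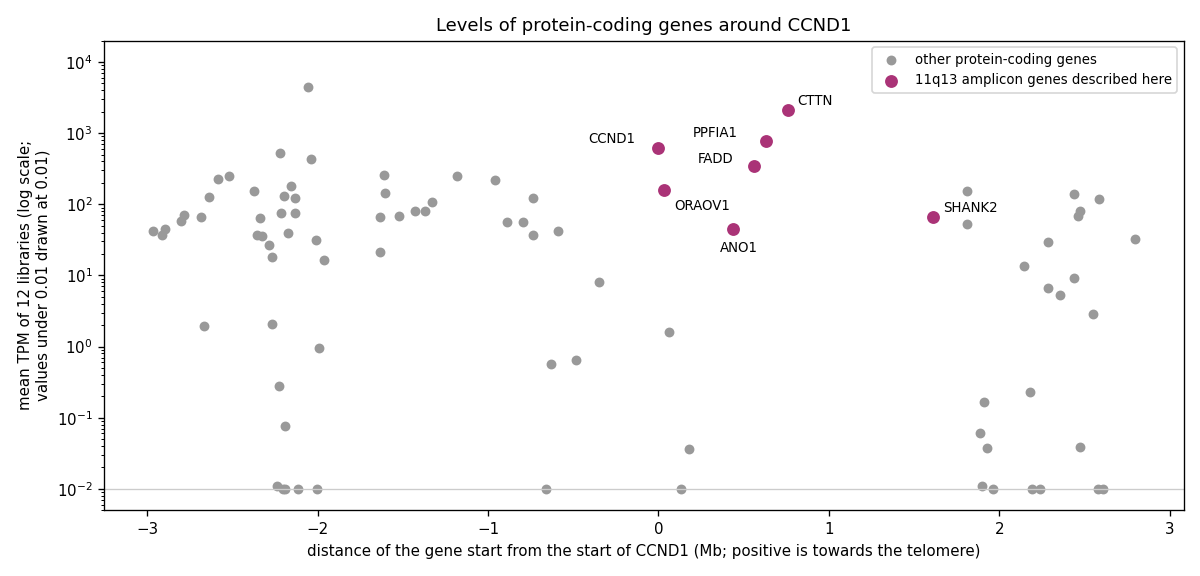
Mean TPM over 12 libraries (log axis, values under 0.01 drawn at 0.01) of the protein-coding genes within 3000000 bases of the start of CCND1, against the distance of their start from that of CCND1 in Mb. The 7 genes are coloured, and CTTN, PPFIA1, CCND1 and FADD stand above every other gene from CCND1 onwards, while FGF19 at 1.63 TPM lies low between them.

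Differences between groups were tested with limma on log2(TPM + 1), in one fit of 4 group means to the 12 libraries, with Benjamini-Hochberg adjustment over the 15973 genes tested, those reaching 1 TPM in 3 or more of the libraries. A gene with an adjusted p under 0.05 was counted as changed, and fold changes are differences of log2(TPM + 1), a scale that understates the change of low genes. Changes are set against a background, the percentage of all tested genes that passed the same rule. Fold changes in bulk RNA do not tell a change per cell from a change in the mix of cells. The KO effect in irradiated cells and the radiation effect in WT cells share the 3 irradiated WT libraries, so these are not independent of each other. The same holds for each other pair of comparisons with a group in common.

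In unirradiated cells, STING KO against WT changed none of the 7 genes, and none had an unadjusted p under 0.05. Over all tested genes, 276 (1.73%) were changed, 0.463% higher and 1.26% lower, and 14.3% had an unadjusted p under 0.05. CCND1 was 579 ± 5.42 TPM in KO and 606 ± 11.8 in WT cells (SD, n = 3), a difference of -4.46% between the means. Its log2 fold change was -0.066 (SE 0.037, 95% interval -0.15 to 0.017, adjusted p = 0.48). The KO libraries of CCND1 lay below all WT libraries and those of PPFIA1, by a margin within 1 TPM at 759, above all WT libraries, a separation seen for 20.6% of the tested genes. Fold changes ranged from -0.19 for SHANK2 to 0.072 for PPFIA1. The intervals were narrow for CTTN (-0.086 to 0.047), FADD (-0.028 to 0.17) and PPFIA1 (-0.0097 to 0.15), and wide for SHANK2 (-0.73 to 0.35).

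In irradiated cells, CCND1 was lower in KO than in WT and was the only one of the 7 genes to change. Its level was 604 ± 17.0 TPM in KO and 706 ± 24.8 in WT cells (SD, n = 3), a difference of -14.5% between the means. The log2 fold change was -0.23 (SE 0.037, 95% interval -0.31 to -0.14, adjusted p = 0.0084), and all 3 KO libraries lay below all 3 WT libraries. The count was thus 1 of 7 downward and 0 upward, where 2.66% of all tested genes fell, 0.927% rose and 3.59% changed in either direction. The call was made under 19 of 20 alternative settings and was lost when only the 6 irradiated libraries were fitted (same fold change, adjusted p = 0.081).

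The remaining 6 genes did not pass the test in irradiated cells. ANO1 was 54.5 ± 0.65 TPM in KO and 47.4 ± 3.15 in WT cells, without overlap of the libraries, which 24.1% of the tested genes also showed. Its log2 fold change was 0.20 (SE 0.13, 95% interval -0.084 to 0.48, adjusted p = 0.47). CTTN, PPFIA1 and FADD had fold changes of 0.0015, 0.0084 and -0.012. Their intervals, -0.065 to 0.068, -0.073 to 0.090 and -0.11 to 0.084, bound a difference in either direction. ORAOV1 (-0.11) and SHANK2 (-0.24) had wider intervals, -0.41 to 0.20 and -0.78 to 0.29.

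Radiation raised CCND1 in WT cells. The level rose from 606 ± 11.8 to 706 ± 24.8 TPM (SD, n = 3), by 16.5%, and the log2 fold change was 0.22 (SE 0.037, 95% interval 0.14 to 0.30, adjusted p = 0.011). All irradiated libraries lay above all unirradiated ones. CCND1 was 1 of 7 genes to rise, where 2.24% of all tested genes rose, 1.5% fell and 3.74% changed in either direction. The call was made under 18 of 20 alternatives. It was lost when only the 6 WT libraries were fitted (adjusted p = 0.082) and without irradiated WT replicate 1, the library with the highest CCND1, when the fold change was 0.20 and the adjusted p = 0.054.

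Of the other genes, PPFIA1 came closest to the threshold in WT cells. Its mean went from 737 ± 24.5 to 813 ± 12.6 TPM (log2 fold change 0.14, SE 0.037, 95% interval 0.060 to 0.22, adjusted p = 0.065). With quantile normalization, the only 1 of 20 alternatives to call it, the fold change was 0.17 and the adjusted p = 0.021, while over the 20 the adjusted p ranged up to 0.18. ANO1 went from 38.3 ± 3.94 to 47.4 ± 3.15 TPM, with a fold change of 0.30 (SE 0.13, unadjusted p = 0.038 and adjusted p = 0.24 by limma). SHANK2 had the greatest fold change, 0.40, with an interval of -0.14 to 0.94. In 6 of 7 genes, all but ORAOV1, every irradiated WT library was above every unirradiated one, while the groups did not overlap in either direction for 24.8% of the tested genes. Because the 7 genes are neighbours measured in the same libraries, they do not count as independent observations.

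In KO cells, none of the 7 genes changed with radiation, and 1, ANO1, had an unadjusted p under 0.05, against 3.69% of all tested genes changed and 18.1% with an unadjusted p under 0.05. CCND1 was 579 ± 5.42 TPM before and 604 ± 17.0 after radiation, 4.26% higher on average, and the libraries met at 584 TPM. Its log2 fold change was 0.060 (SE 0.037, 95% interval -0.023 to 0.14, adjusted p = 0.45). ANO1 was 39.7 ± 8.59 TPM before and 54.5 ± 0.65 after radiation. Its log2 fold change was 0.47 (SE 0.13, 95% interval 0.18 to 0.75, adjusted p = 0.077). Without unirradiated KO replicate 1, the library that stood above the rest of its group, the fold change was 0.63 and the adjusted p = 0.0088, the only 1 of 20 alternatives to call it. Over the 20 alternatives the fold change ranged from 0.36 to 0.63 and the adjusted p from 0.0088 to 0.21, the highest without unirradiated KO replicate 2. The libraries also did not overlap for PPFIA1 and, with the ranges meeting at 2133 TPM, for CTTN, as for 24.3% of the tested genes. PPFIA1 had a fold change of 0.078 and CTTN of 0.050, while FADD (-0.017) and ORAOV1 (-0.081) were slightly lower and overlapped.

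The radiation effect on CCND1, called in WT and not in KO cells, was compared directly by the interaction term. The log2 difference between both radiation effects, KO minus WT, was -0.16 (SE 0.053, 95% interval -0.28 to -0.043). Its unadjusted p was 0.012 and its adjusted p = 0.68 by limma, so a difference between genotypes did not pass the threshold. No other of the 7 genes had an unadjusted p under 0.05 for the interaction, as 6.61% of all tested genes did, and 3 of 15973 (0.0188%) were called, none of them among the 7.

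**Figure D3:**
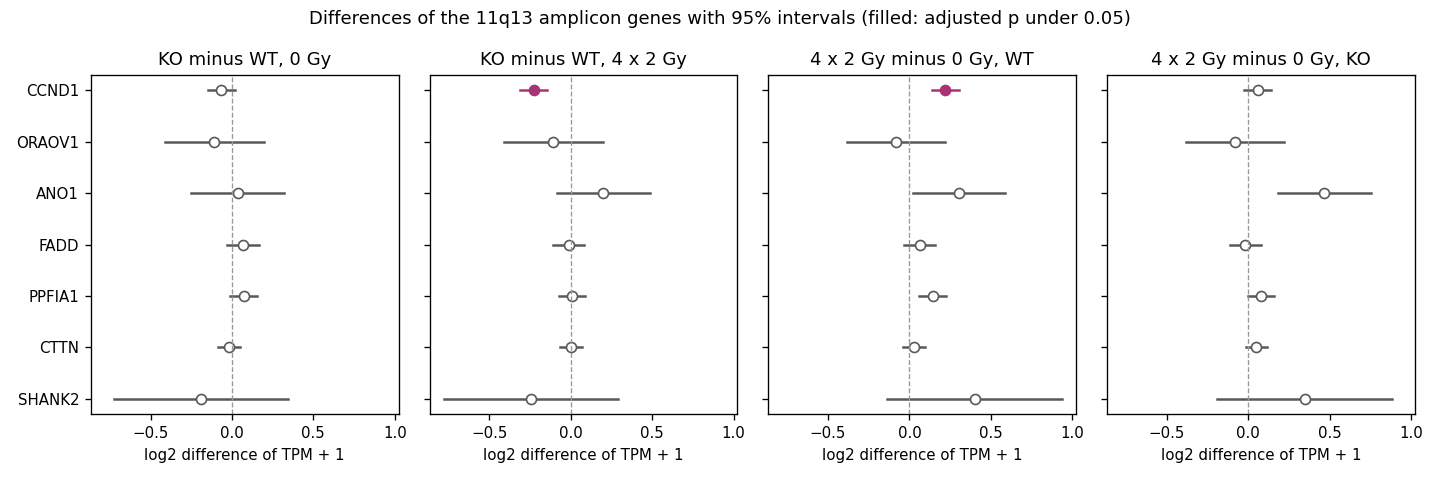
Log2 fold changes on the log2(TPM + 1) scale (points) with 95% intervals from limma (lines) for the 7 genes in 4 comparisons, filled where the adjusted p is under 0.05. Only CCND1 is filled, at -0.23 for KO against WT in irradiated cells and at 0.22 for radiation in WT cells, and the intervals of SHANK2, ORAOV1 and ANO1 are the widest.

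Across the region of 3000000 bases on either side of CCND1, 87 of 216 annotated genes could be tested. In unirradiated cells, KO changed none of the 87 by limma, and 16 had an unadjusted p under 0.05, beside 1.73% and 14.3% of all tested genes. Among irradiated cells, CCND1 was lower in KO than in WT. Higher in KO were 3 genes, DHCR7 (log2 fold change 0.37), ALDH3B2 (0.44) and CHKA (0.31). With CCND1 these made up 4.60% of the region's tested genes against 3.59% of all. Radiation of WT cells raised CCND1 and lowered ALDH3B2 (-0.51) and CHKA (-0.26), 3.45% of the region against 3.74% of all. Radiation of KO cells lowered SYT12 (-0.63), ALDH3B2 (-0.48) and LRP5 (-0.27), again 3.45%, against 3.69%. ALDH3B2, an aldehyde dehydrogenase, CHKA, a choline kinase, and SYT12, a synaptotagmin, were named after their values were seen. The median log2 fold change of the region was 0.045, 0.0015, -0.014 and -0.031 in these 4 comparisons, beside -0.021, -0.017, 0.017 and 0.019 over all tested genes.

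CCND1 made up nearly all of the D-type cyclin RNA. Its share of the summed TPM of CCND1, CCND2 and CCND3 was 93.6% ± 0.57 in unirradiated WT, 91.7% ± 0.74 in irradiated WT, 94.4% ± 0.80 in unirradiated KO and 93.6% ± 1.85 in irradiated KO cells (SD, n = 3). CCND2 stood far below CCND1 and changed in all 4 comparisons. It was 22.0, 22.5 and 24.2 TPM in unirradiated WT, 31.1, 32.7 and 32.7 in irradiated WT, 9.11, 9.18 and 9.44 in unirradiated KO and 14.1, 15.4 and 15.5 in irradiated KO libraries, and no 2 groups overlapped. CCND2 was lower in KO without radiation (log2 fold change -1.22, SE 0.058, adjusted p = 1.2e-06) and with radiation (-1.05, adjusted p = 3.5e-06). Radiation raised it in WT (0.47, adjusted p = 0.0018) and in KO cells (0.64, adjusted p = 3.7e-04). Its interaction term was 0.17 (SE 0.082, adjusted p = 0.76).

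CCND3 varied too widely between libraries for a call in any comparison. It was 15.4, 17.7 and 22.2 TPM in unirradiated WT, 26.8, 27.1 and 42.4 in irradiated WT, 19.3, 26.7 and 29.4 in unirradiated KO and 12.2, 33.7 and 35.0 in irradiated KO libraries. The irradiated WT libraries lay above the unirradiated ones, and the log2 fold change was 0.75 (SE 0.36, adjusted p = 0.30).

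**Figure D4:**
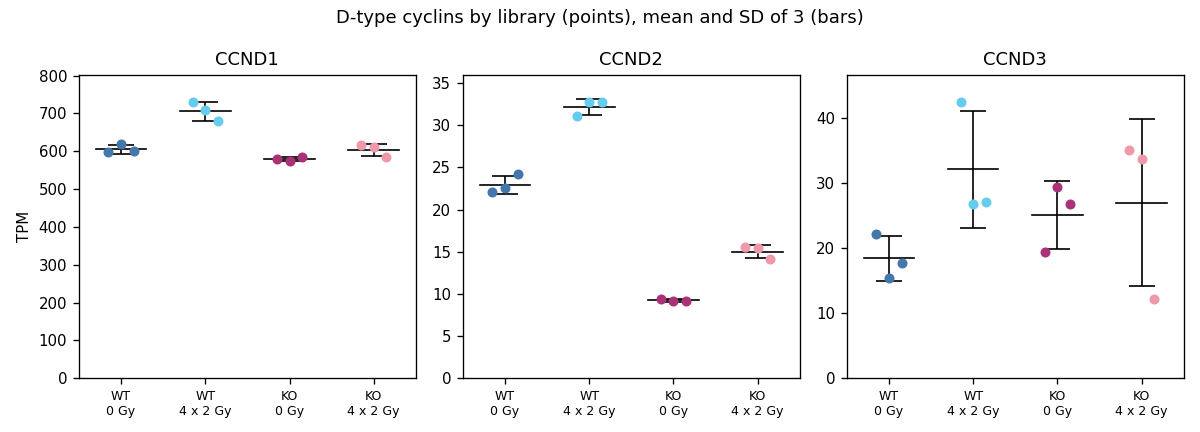
TPM of CCND1, CCND2 and CCND3 by group (vertical axes from 0, a separate scale for each gene), with points for libraries, bars for the mean of 3 and error bars for the SD. CCND2 separates all 4 groups, from 9.11 to 9.44 TPM in unirradiated KO up to 31.1 to 32.7 TPM in irradiated WT libraries, whereas CCND3 ranges from 12.2 to 42.4 TPM with overlap.

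Besides the D-type cyclins, CDK inhibitors were the changed genes in a list of 24 genes of the cyclin D, CDK and RB pathway, all of which were tested. KO changed 3 of the 24 in unirradiated cells (1 higher, 2 lower), where 1.73% of all tested genes changed, and 4 in irradiated cells (1 higher, 3 lower, CCND1 among them), where 3.59% did. Radiation changed 5 in WT cells (3 higher, 2 lower) and 3 in KO cells (2 higher, 1 lower), beside 3.74% and 3.69% of all tested genes. CDKN1A, a p53 target that encodes p21, was 26.4 ± 2.71 TPM in unirradiated and 45.9 ± 3.18 in irradiated WT cells, and 15.8 ± 0.51 and 24.5 ± 2.68 in KO cells (SD, n = 3). It was lower in KO in both arms (log2 fold change -0.70 and -0.88, adjusted p = 0.0033 and 4.2e-04) and higher after radiation in both genotypes (0.78 in WT and 0.60 in KO, adjusted p = 0.0016 and 0.0068). CDKN2C, which encodes the CDK4 and CDK6 inhibitor p18, was higher in KO in both arms (0.36 and 0.79, adjusted p = 0.0062 and 1.5e-05). Radiation lowered CDKN2C in WT cells (-0.41, adjusted p = 0.0024), while in KO cells its fold change was 0.021 (adjusted p = 0.89). The interaction was not called for CDKN2C or any other gene of the list.

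CDKN2D, which encodes the related inhibitor p19, fell after radiation in WT (-0.39, adjusted p = 0.021) and in KO cells (-0.35, adjusted p = 0.032). The kinases and RB itself did not pass the test in any comparison. RB1 stayed between 74.4 and 82.8 TPM and CDK6 between 42.3 and 48.7 TPM in all libraries, whereas CDK4 varied from 133 to 275 TPM. The median log2 fold change of the list was -0.011 for KO in unirradiated and -0.12 in irradiated cells, beside -0.021 and -0.017 for all tested genes. For radiation it was 0.098 in WT and -0.0097 in KO cells, beside 0.017 and 0.019.

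Among 16 genes of E2F-driven S phase entry, which follows phosphorylation of RB, between 0 and 2 changed in each comparison. None was called for KO in unirradiated cells (1.73% of all tested genes were), where 4 of 16 had an unadjusted p under 0.05 by limma, beside 14.3% of all tested genes. For KO in irradiated cells 6 of 16 had such a p, beside 17.9% of all tested genes. In irradiated cells 2 of 16 were called lower in KO, the replicative helicase subunits MCM7 (-0.24, adjusted p = 0.0088) and MCM3 (-0.16, adjusted p = 0.033), beside 2.66% of all tested genes. CCNA2, the gene for cyclin A2, fell after radiation in WT (-0.20, adjusted p = 0.018) and in KO cells (-0.21, adjusted p = 0.013), 1 of 16 genes in each, where 1.5% and 1.7% of all tested genes fell. The median fold change of these 16 genes was -0.063 and -0.12 for KO without and with radiation, and -0.010 and -0.065 for radiation in WT and KO cells, beside -0.021, -0.017, 0.017 and 0.019 over all tested genes.

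FADD acts below the death receptors, and 15 of 20 genes of that pathway could be tested. FADD itself did not change. TNFRSF10B, a receptor for the death ligand TRAIL, was 37.0 ± 2.74 TPM in unirradiated WT, 46.1 ± 0.88 in irradiated WT, 34.4 ± 1.77 in unirradiated KO and 37.3 ± 1.91 in irradiated KO cells (SD, n = 3). It rose with radiation in WT cells (0.31, adjusted p = 0.029) and was lower in KO than in WT after radiation (-0.30, adjusted p = 0.033). TNFSF10, which encodes TRAIL, fell with radiation in WT (-0.59, adjusted p = 0.045) and in KO cells (-0.68, adjusted p = 0.026). No other gene of the list was called, so 1 of 15 changed for KO in irradiated cells, 2 for radiation in WT and 1 in KO cells, beside 3.59%, 3.74% and 3.69% of all tested genes. For KO in unirradiated cells 0 of 15 were called by limma (1.73% of all) and 4 had an unadjusted p under 0.05 (14.3% of all). The list's median fold changes were 0.014, -0.022, 0.058 and -0.017 for KO without and with radiation and radiation in WT and KO cells, beside -0.021, -0.017, 0.017 and 0.019 over all tested genes.

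Of 21 genes of cortactin and branched actin, CTTN included, none was called in either KO comparison or for radiation in WT cells, with 2, 2 and 4 at an unadjusted p under 0.05 by limma. Over all tested genes 14.3%, 17.9% and 18.2% had such a p, and 1.73%, 3.59% and 3.74% were called. Radiation of KO cells raised 2, the kinase gene SRC (0.17, adjusted p = 0.048) and SH3PXD2B, an invadopodium scaffold (0.56, adjusted p = 0.019), the latter from 2.23 ± 0.089 to 3.77 ± 0.58 TPM, where 2% of all tested genes rose. The means of these genes were also higher after radiation in WT cells, without a call. There SRC was 55.5 ± 1.22 and 60.7 ± 1.70 TPM, and SH3PXD2B 2.38 ± 0.30 and 3.33 ± 0.093 TPM. The median fold change of the list lay between -0.028 and 0.048 in the 4 comparisons, and that of all tested genes between -0.021 and 0.019. For the interaction, 0 genes were called by limma in any of the 4 pathway lists. In the cyclin D list 5 of 24 genes had an unadjusted p under 0.05, beside 6.61% of all tested genes. In the S phase, death receptor and cortactin lists 1 of 16, 1 of 15 and 1 of 21 genes had such a p.

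Members of the same gene families as the 7 genes were mostly expressed at lower levels. Of 19 such paralogs 10 could be tested, and CCND2 was the only one called, 1 of 10 in each of the 4 comparisons, beside 1.73% and 3.59% of all tested genes for KO and 3.74% and 3.69% for radiation. Among the chloride channel and scramblase family of ANO1, ANO6 was the highest at 58.1 ± 2.48 TPM in unirradiated WT cells, above ANO1 itself, followed by ANO10 (23.2 ± 0.52), ANO9 (15.1 ± 0.40) and ANO8 (4.69 ± 0.14), while ANO2, ANO3, ANO4, ANO5 and ANO7 were under 1 TPM in every library. Of the liprins, PPFIBP1 was 67.4 ± 2.82, PPFIA3 8.96 ± 1.36 and PPFIBP2 3.41 ± 0.40 TPM in the same cells, and PPFIA2 and PPFIA4 averaged under 1 TPM. SHANK3 was 1.70 ± 0.22 and SHANK1 0.30 ± 0.19 TPM. HCLS1, the relative of cortactin found mainly in blood cells, was 0.38 ± 0.076 TPM.

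The pattern of CCND1 over the 12 libraries was compared with that of every tested gene, as the root mean square difference between z-scored log2(TPM + 1) values. The most like it were DDX18, an RNA helicase gene (difference 0.21), CDC14A, a phosphatase gene (0.27), and TNFRSF10B (0.28). DDX18 was 111.5 ± 2.83, 130.0 ± 6.66, 103.8 ± 2.69 and 112.0 ± 3.40 TPM in unirradiated WT, irradiated WT, unirradiated KO and irradiated KO cells (SD, n = 3). CDC14A was 7.16 ± 0.74, 10.7 ± 0.74, 6.47 ± 0.41 and 7.03 ± 0.73 TPM in the same order. The other genes of the set were less like CCND1 than these, which were picked as the closest of all tested genes. SHANK2 differed by 0.80, PPFIA1 by 1.03, CTTN by 1.05, ANO1 by 1.18, FADD by 1.24 and ORAOV1 by 1.39, where the median over all tested genes was 1.35. The points share their libraries and their groups, so these values describe likeness over 12 libraries and carry no test. Values for neighbours outside the set are not given. Of these, GAL was 211.5, 266.6, 186.1 and 214.7 TPM in the same order. Its log2 fold change was -0.31 for KO in irradiated cells and 0.34 for radiation in WT cells (adjusted p = 0.096 and 0.072 by limma). For MYEOV these were -0.61 and 0.53 (adjusted p = 0.17 and 0.22). Of 12 listed neighbours tested, 4 and 8 had fold changes above 0 in these comparisons.

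Markers of other cell types and of the squamous lineage also differed between some groups. CDH5, an endothelial cadherin, rose with radiation in WT (0.61, adjusted p = 0.029) and in KO cells (0.61, adjusted p = 0.026), while PECAM1 was at or near 0. VWF was 2.84 ± 0.21 TPM before and 3.40 ± 0.16 after radiation in WT cells. In KO cells it was 3.33 ± 0.20 and 4.27 ± 0.22 TPM, without a call in either genotype. The 2 endothelial markers tested had an unadjusted p under 0.05 by limma in each genotype, beside 18.2% and 18.1% of all tested genes. CD14 was higher in unirradiated KO cells (0.40, adjusted p = 0.043), with PTPRC and CD3E at or near 0. KRT17, a basal keratin, was lower in KO in both arms (-0.29 and -0.46, adjusted p = 0.014 and 4.9e-04). KRT14 was higher in unirradiated KO cells (0.24, adjusted p = 0.022), and SFN was lower in irradiated KO than in irradiated WT cells (-0.21, adjusted p = 0.038). KRT5 was higher in KO in both arms (0.52 and 0.54) without a call (adjusted p = 0.16 and 0.11 by limma). Of the 11 squamous markers, KO thus changed 1 upward and 1 downward without radiation and 2 downward with radiation. Over all tested genes 1.73% and 3.59% changed. The desmosomal gene DSG3 fell with radiation in WT (-0.38, adjusted p = 0.0064) and in KO cells (-0.38, adjusted p = 0.0056), EGFR in WT cells (-0.23, adjusted p = 0.032), and SFN (-0.28, adjusted p = 0.010) and PKP1 (-0.54, adjusted p = 0.042) in KO cells. Of the 11 squamous markers, 2 thus fell with radiation in WT and 3 in KO cells, where 1.5% and 1.7% of all tested genes fell. Without a call, PKP1 was 20.2 ± 4.04 TPM before and 13.8 ± 1.22 after radiation in WT cells. SFN was 1180 ± 59.7 and 1052 ± 22.1 TPM in WT cells, and EGFR 196.5 ± 3.90 and 180.5 ± 0.45 in KO cells, also uncalled. For the interaction 0 of the 11 were called. The part of these markers in the values of the 7 genes was not tested.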

How the data were processed

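RNA of 12 FaDu libraries, 3 per group, was purified with oligo-dT beads and sequenced as 100-base pairs. The authors deposited 1 table of TPM per gene, unfiltered, with 58288 rows, of which 25770 were at 0 in every library. The submitters' processing notes name HISAT2, StringTie, DESeq2 and hg38, without versions or roles, and the strand setting is not given in the sources used here. Columns named after non-targeting gRNA 2 were taken as WT, and the other genotype as KO. Replicate numbers come from the labels and did not pair the samples.

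TPM is not a count, so log2(TPM + 1) entered lmFit, contrasts.fit and eBayes (trend on) of limma 3.58.1, run in R 4.3.3, for the 15973 genes that reached 1 TPM in 3 libraries. The 5 contrasts had 8 residual degrees of freedom, and p-values were adjusted by Benjamini-Hochberg. The authors used DESeq2 instead. The code was tested on simulated data. TPM keeps no depth, so no counting interval was given, and the 3 libraries per group limit the precision. TMEM173 was compared by exact permutation tests. Coordinates came from GENCODE release 29 (GRCh38), which held 57980 of the identifiers, and were joined with pandas 2.3.3 in Python 3.11.15.

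Genes named are the 7 members, TMEM173, list genes past the threshold (at most the 4 largest per list and comparison), paralogs, the listed neighbours, and the 3 genes most like CCND1. ALDH3B2, CHKA, SYT12, RB1, CDK4, CDK6, marker genes and genes overlapping a member were named outside that rule, after their values were seen. The members and lists were chosen with earlier results of these data known. Alternatives were quantile normalization, a pseudocount of 0.1, scaling by median-of-ratios factors, a replicate block, eBayes with the trend off, no filter or a filter at a mean of 5 TPM, only the 6 libraries compared, and fits that omit each library in turn.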

Additional observations from a re-analysis of the deposited data

How the results depend on the processing

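Of the 693 fold changes of the 7 genes recomputed under the alternatives, 688 kept their direction where called and their side of the threshold, 3 lost a call, 2 gained one and 0 reversed, while 29 values that were never called changed sign. With only the 6 libraries compared, 0 genes were called for KO in irradiated cells and 0 for radiation in WT cells, with fewer residual degrees of freedom. With quantile normalization 2 were called for radiation in WT cells, CCND1 and PPFIA1. With each library left out in turn, the genes called ranged from 0 to 0 for KO in unirradiated cells, from 1 to 1 for KO in irradiated cells, from 0 to 1 for radiation in WT cells (0 without irradiated WT replicate 1), from 0 to 1 for radiation in KO cells (1 without unirradiated KO replicate 1) and from 0 to 0 for the interaction. The cause of these differences between settings was not tested.

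With the replicate block, 0, 1, 1, 0 and 0 of the 7 genes were called in the 5 comparisons, as without it, and over all genes 211, 378, 315, 359 and 1, against 276, 573, 597, 590 and 3 without it. Same-numbered libraries did not deviate together (0 of 18 pairs with r over 0.1, range -0.060 to 0.064), and 4 of 12 libraries correlated best with their own number. Fits to only 6 libraries called 103, 252, 166 and 195 genes in all, and leaving out a library 172 to 292, 313 to 542, 242 to 526, 268 to 553 and 1 to 9. TPM keeps no depth, so a limit set by depth could not be computed.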
